A study of Rattus norvegicus with 12 samples.

Results

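The Sprouty and Spred genes were followed on Affymetrix arrays, 1 per animal, in RNA from the forebrain of 12 rats, which were Long Evans males of 6 weeks kept in single housing. In 6 exposed animals the RNA was taken after 3 hours in an environment new to them that held objects of varied shape and colour, and 6 control animals stayed in a standard laboratory cage. The family was defined by gene symbol as Spry1, Spry2, Spry3, Spry4, Spred1, Spred2 and Spred3. Every probe set that the platform annotation ties to exactly 1 of these symbols was taken, which gave 6 probe sets for 5 genes among the 14217 genes that the annotation names. Spry1, Spry2, Spry3 and Spry4 had 1 probe set each and Spred3 had 2. Spred1 and Spred2 had no probe set under this rule and were not analysed here.

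Sprouty proteins are inhibitors inside the cell that dampen signalling from receptor tyrosine kinases through Ras to the kinase ERK, and ERK signalling in turn raises transcription of Sprouty genes, so that the pathway limits itself. Spred proteins share with them a cysteine-rich domain at the carboxyl end, carry an EVH1 domain at the other end, and bring neurofibromin, which switches Ras off, to the membrane. In neurons ERK is activated by glutamate receptors and by neurotrophins such as BDNF, and it is one of the routes by which activity reaches the nucleus.

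Spry4 and Spry3 rose in the forebrain of exposed animals, by 1.45-fold and 1.24-fold, and no member fell. Spry2 and the brighter of the Spred3 probe sets had smaller positive changes that did not pass the test, 1.12-fold and 1.13-fold. Spry1 and the dimmer Spred3 probe set had changes close to 0. Values below are the deposited probe set intensities in arbitrary linear units, and a change is the mean log2 intensity of exposed animals minus that of control animals, with the standard error (SE) of a limma fit over 31042 probe sets. A probe set passed when its p, adjusted by Benjamini-Hochberg over all of these, was under 0.05. Of all probe sets, 1.97% passed as higher and 0.599% as lower, while of the 6 Sprouty and Spred probe sets 2 passed as higher and 0 as lower.

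The promoters of the members that rose are printed first, since the search for motifs of ERK-driven transcription factors bears on them. Each runs from 250 bases before the annotated start of the gene to 50 bases after it, 5′ to 3′ on the strand of the gene, as RefSeq gives it on build GRCr8. The Spry4 window is chr18:30702497-30702796 on the minus strand, and the Spry3 window is chr12:21782007-21782306 on the plus strand. Capitals mark a repeated word in Spry4 and the match to the letters TGANTCA in Spry3.
Spry4: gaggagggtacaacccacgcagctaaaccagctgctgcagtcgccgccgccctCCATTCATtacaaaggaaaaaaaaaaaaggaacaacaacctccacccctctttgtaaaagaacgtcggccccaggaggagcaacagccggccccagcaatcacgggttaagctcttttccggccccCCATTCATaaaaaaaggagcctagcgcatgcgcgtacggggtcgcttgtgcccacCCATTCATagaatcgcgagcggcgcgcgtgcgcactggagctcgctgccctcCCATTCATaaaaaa
Spry3: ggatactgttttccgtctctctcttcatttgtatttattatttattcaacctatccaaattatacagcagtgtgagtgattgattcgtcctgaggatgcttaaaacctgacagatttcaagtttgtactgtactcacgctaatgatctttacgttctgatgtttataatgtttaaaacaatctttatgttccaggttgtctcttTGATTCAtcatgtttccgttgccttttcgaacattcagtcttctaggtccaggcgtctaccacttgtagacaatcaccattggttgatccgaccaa

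The window of Spry3 matches TGANTCA, a loose form of the AP-1 motif of Fos and Jun proteins, as TGATTCA, with its first base at -46 from the start. Of 33469 promoter windows of this length, 7.33% match those letters on either strand. The site that Fos and Jun are best known to bind is the narrower TGACTCA, searched afterwards, which is in 4.63% of all windows and in 0 of the 8 windows of the members. The window of Spry4 holds none of the 6 motifs searched on both strands. These were TGANTCA, the cAMP response element TGACGTCA (in 1.83% of all windows), its part TGACG (21.2%), the ETS motif CCGGAAG (8.75%), the Egr motif GCGGGGGCG (2.73%) and the CArG box of serum response factor (1.64%). TGACG lies inside the full cAMP response element, so the 2 counts overlap. A match to these letters is a description, and a window without one says nothing of the factor. Among the other members, TGACG was found in 1 of the 2 Spry2 windows and in the Spred2 window, and no motif in those of Spry1, Spred1 and Spred3. The 8-base word CCATTCAT stands 4 times in the Spry4 window, with its first base at -197, -71, -16 and 37 from the start. This word was noticed after the sequence was read, it is present in 1.02% of all windows, and 1.39% of windows hold some word of 8 bases with 3 or more different letters in 4 or more copies. The base composition of the windows of the 2 genes that rose was unlike, with 56% G or C and 22 CpG in Spry4 and 37.3% and 8 CpG in Spry3.

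Spry4, an inhibitor of Ras and ERK signalling known for its induction by fibroblast growth factors, had intensities of 433 at the lowest, 499.8 at the median and 546 at the highest among exposed animals, against 312, 335 and 359 among control animals. The groups did not overlap, and the lowest exposed animal stood above the highest control animal. Of all probe sets, 1.94% had every exposed animal above every control animal. The mean was 487 ± 43.2 in exposed animals and 336 ± 22.1 in control animals (SD, n = 6 each). In limma the change was 0.54 ± 0.06 on the log2 scale (SE, adjusted p = 0.00117), with a 95% interval from 0.40 to 0.68, and its rank by p was 87 among the 14217 genes. In size, 61 genes that passed had a larger log2 change than Spry4. The highest exposed animals were number 3 (546), number 5 (504.5) and number 1 (504), and the lowest were numbers 4 and 6 (433 and 439.8).

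Spry3, another member of the Sprouty family of inhibitors, had a lowest, median and highest intensity of 403, 418 and 461 in exposed animals, against 329, 338 and 371 in control animals. These groups did not overlap either. The mean was 427 ± 25.1 in exposed animals and 345 ± 18.2 in control animals (SD, n = 6 each), a log2 change of 0.30 ± 0.05 (SE, adjusted p = 0.00467 in limma) with a 95% interval from 0.20 to 0.41. Its rank by p among genes was 157. The exposed animals that were highest for Spry3 were numbers 4 and 2 (461 and 453), while number 3, the highest for Spry4, was at 409.

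**Figure D1:**
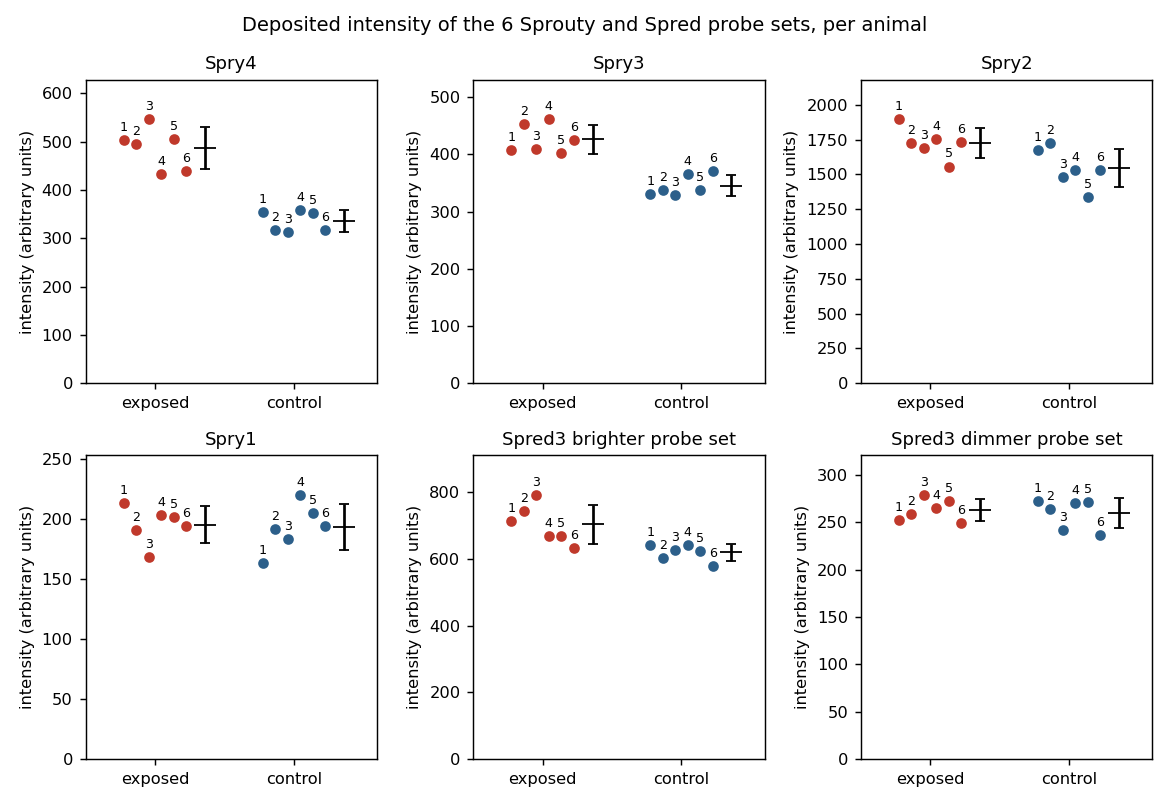
Deposited intensity (arbitrary units, linear axis from 0) of the 6 Sprouty and Spred probe sets, with 1 point per animal, labelled by its number, exposed animals in red on the left and control animals in blue on the right, and black bars for the mean and SD of 6 animals. All exposed animals lie above all control animals for Spry4 and Spry3, and the groups overlap in the other 4 panels.

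Spry2, which dampens ERK downstream of fibroblast growth factor and neurotrophin receptors, had a lowest, median and highest intensity of 1557, 1730 and 1896 in exposed animals, against 1337, 1530 and 1727 in control animals. The groups overlapped, with 3 of 6 exposed animals above every control animal and 6 of 6 above the control mean. The mean was 1726 ± 110 in exposed animals and 1546 ± 140 in control animals (SD, n = 6 each). The log2 change of 0.16 ± 0.06 (SE, 95% interval 0.02 to 0.30) had an unadjusted p of 0.0274 in limma and did not pass (adjusted p = 0.279). An unadjusted p under 0.05 was reached by 13.2% of all probe sets.

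Spry1, known for holding back Ret signalling in the developing kidney, had a lowest, median and highest intensity of 168, 198 and 213 in exposed animals, against 164, 193 and 219.8 in control animals. Exposed values lay inside the control range in all 6 animals. The mean was 195 ± 15.5 in exposed animals and 193 ± 19.1 in control animals (SD, n = 6 each), and the log2 change was 0.02 ± 0.08 (SE, adjusted p = 1 in limma). The 95% interval, from -0.15 to 0.19, covers folds between 0.903 and 1.14, so a change as large as that of Spry3 or Spry4 lies outside it.

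Spred3, the only Spred gene with a probe set under the rule of exactly 1 symbol, was read by 2 probe sets that differed in brightness. The brighter one had a lowest, median and highest intensity of 632, 691 and 791 in exposed animals, against 578, 626 and 643 in control animals. Exposed animals stood above every control animal in 5 of 6 cases, the exception being number 6 at 632. Its mean was 703 ± 58.1 in exposed animals and 619 ± 25.1 in control animals (SD, n = 6 each), with a log2 change of 0.18 ± 0.05 (SE, 95% interval 0.07 to 0.30) that did not pass (unadjusted p = 0.0055, adjusted p = 0.117 in limma). The dimmer one had a lowest, median and highest intensity of 249.9, 262 and 279 in exposed animals, against 237, 267 and 272 in control animals, and its log2 change was 0.02 ± 0.05 (SE, 95% interval -0.08 to 0.12, adjusted p = 1). The log2 change of the dimmer probe set minus that of the brighter one was -0.16 ± 0.05 (SE, unadjusted p = 0.00924). In limma over 6609 such pairs of probe sets of 1 gene this difference did not pass (adjusted p = 0.287), and 0.908% of all pairs did.

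**Figure D2:**
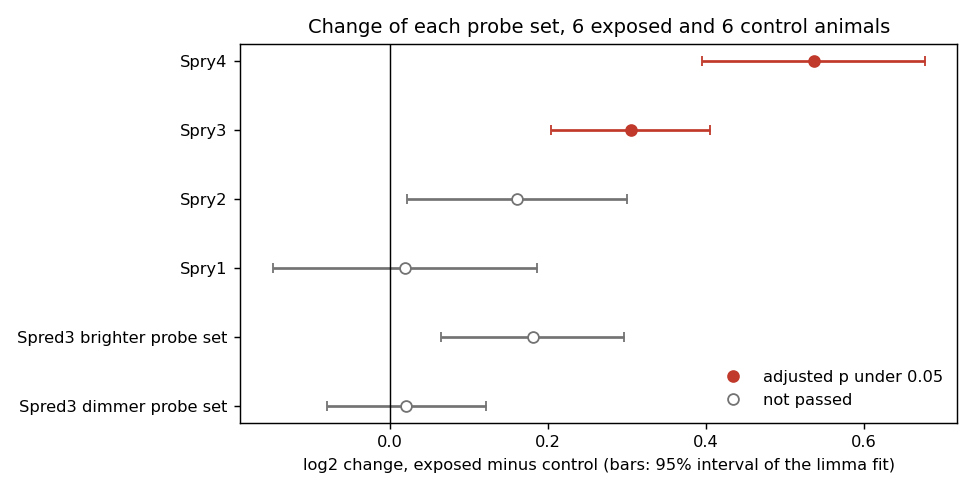
Change of each probe set on the log2 scale (exposed minus control), with points for the limma estimate over 6 exposed and 6 control animals and bars for its 95% interval. Filled red points passed at an adjusted p under 0.05. The intervals of Spry4 (0.40 to 0.68) and Spry3 (0.20 to 0.41) lie furthest from 0, and those of Spry1 and the dimmer Spred3 probe set include 0.

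Seen as a family, all 6 probe sets had a change above 0, compared with 39% of all probe sets, of which many were at the floor on every array. The median log2 change over the 5 genes was 0.18, and over all 14217 genes it was 0. The interval of Spry4 did not reach the estimates of Spry2 (0.16), Spred3 (0.18) or Spry1 (0.02), and differences between members were not tested. All 6 probe sets were above the floor set for dim values on all 12 arrays, the lowest single value being 3.04 times the floor (Spry1) and that of Spry2 24.9 times it. The coefficient of variation between animals of 1 group lay between 4.31% and 8.86% in exposed animals and between 4.05% and 9.93% in control animals over the 6 probe sets. Spry4 varied most among exposed animals (8.86%), and Spry1 among control animals (9.93%).

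The labels number the animals of each group 1 to 6 without saying what the numbers stand for, and the sets 1 to 3 and 4 to 6 were looked at apart. In animals 1 to 3, Spry4 averaged 515 ± 27.1 in exposed animals and 328 ± 23.4 in control animals, and in animals 4 to 6 it averaged 459 ± 39.5 in exposed animals and 343 ± 22.4 in control animals (SD, n = 3 each). The log2 change was thus 0.65 ± 0.07 in the first set and 0.42 ± 0.08 in the second (SE). Spry3 changed by 0.35 ± 0.05 and 0.26 ± 0.07, and the brighter Spred3 probe set by 0.26 ± 0.05 and 0.10 ± 0.05. For Spry4 and Spry3 the groups did not overlap within either set, which follows from their lack of overlap over all animals and adds nothing to it. For the brighter Spred3 probe set, 3 of 3 exposed animals were above every control animal in animals 1 to 3, and 2 of 3 in animals 4 to 6. The share of all probe sets without overlap at 3 per group was not counted. Within either set of 3 per group neither gene passed in limma (adjusted p = 0.0715 and 0.27 for Spry4, 0.128 and 0.357 for Spry3). The change in animals 4 to 6 minus that in animals 1 to 3 was -0.23 ± 0.11 for Spry4 (SE, unadjusted p = 0.0677) and -0.17 ± 0.07 for the brighter Spred3 probe set (SE, unadjusted p = 0.0462). Neither passed (adjusted p = 1 for both), and this difference passed for 0% of all probe sets in limma.

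Of the array measures that could move with these genes, the 3 prime minus 5 prime log2 difference of the Gapdh and beta-actin control probe sets, which tracks RNA degradation and labelling, was 0.45 ± 0.07 in exposed animals and 0.39 ± 0.05 in control animals (SD, n = 6 each, exact two-sided permutation p = 0.0823). Exposed animal 3, which was highest for Spry4 and for both Spred3 probe sets, had the highest such difference at 0.59. Without that animal the log2 change was 0.50 ± 0.06 for Spry4 (adjusted p = 0.00222 in limma) and 0.32 ± 0.05 for Spry3 (adjusted p = 0.00831). With this difference as a covariate the change was 0.49 ± 0.07 for Spry4 (adjusted p = 0.00723) and 0.34 ± 0.05 for Spry3 (adjusted p = 0.0064). In that fit the change was 0.13 ± 0.05 for Spry1 (adjusted p = 0.349) and 0.13 ± 0.05 for the brighter Spred3 probe set (adjusted p = 0.375), against 0.02 and 0.18 without the covariate.

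The 13 measured endothelial and mural markers, genes of vessel wall cells, had a mean log2 level between 8.70 and 8.79 in exposed animals and between 8.76 and 8.86 in control animals. Of these 13, 0 passed as higher and 1 as lower (Slco1a4, which codes for a transporter at the blood-brain barrier), and none was at the floor on all arrays. With their mean as a covariate both calls were lost, while the log2 changes were 0.56 ± 0.11 for Spry4 (adjusted p = 0.0789 in limma) and 0.28 ± 0.08 for Spry3 (adjusted p = 0.238). In the same fit Spry2 was at 0.07 ± 0.10 and Spry1 at -0.09 ± 0.12 (adjusted p = 1 for both). The marker mean ran with the group, and in that fit 98 probe sets passed, against 796 without the covariate. Its part in the results for Spry4 and Spry3 was not tested beyond this fit. Neuron markers (15 measured, 12.16 to 12.25 in exposed and 12.17 to 12.23 in control animals), astrocyte markers (9 measured, 12.01 to 12.16 and 12.04 to 12.13) and oligodendrocyte markers (9 measured, 12.32 to 12.42 and 12.33 to 12.48) overlapped between the groups, with 0 passed. Of the measured markers of oligodendrocyte precursors (6), microglia (11), choroid plexus and ependyma (8), blood (3) and olfactory bulb and neuroblasts (7), 0 passed as well. Meninges and fibroblast markers (8 measured, 0 at the floor on all arrays) had a mean log2 level between 10.06 and 10.25 in exposed animals and between 10.18 and 10.37 in control animals, a difference of -0.10. Of these 8, 1 had a positive change and 0 passed, with Col1a2, a collagen chain, at -0.16 ± 0.06 (adjusted p = 0.254). Their part in the results for Spry4 and Spry3 was not tested. In RNA of whole tissue, fewer cells of a type and less RNA per cell cannot be told apart. As a check of the tissue, the 11 measured forebrain markers were above the floor of 5.75 on all 12 arrays. Of 6 markers of midbrain and hindbrain, Hoxa5 was at the floor on 12 arrays, Gabra6 on 9, En2 on 5 and Slc6a2 on 4, while Gbx2 and Hoxb3 were above it on all.

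Genes for the components of the pathway gave 0 or 1 call per list. Counts this small cannot be told from the share of all genes that rose, given at the end of this paragraph. Of 12 measured genes for Ras, Raf, MEK and ERK proteins and the kinases next to them, 0 rose and 0 fell (median log2 change -0.03). The member with the smallest p was Rap1b, a small GTPase related to Ras, at 0.11 ± 0.03 (SE, adjusted p = 0.0659 in limma). Of 18 adaptors and Ras regulators 1 rose and 0 fell (median -0.02). It was Ptpn11, the phosphatase SHP2, which carries signals from receptors to Ras, with 4017 ± 69.9 in exposed animals and 3797 ± 86.4 in control animals (SD, n = 6 each, log2 change 0.08, adjusted p = 0.028). Sos1, the exchange factor that loads Ras with GTP, had a change of 0.12 ± 0.03 (adjusted p = 0.0521). Ptpn11 was also the single gene that rose among 20 measured binding partners of Sprouty and Spred proteins (0 fell, median -0.03). The gene for neurofibromin, Nf1, had a log2 change of -0.25 ± 0.12 (adjusted p = 0.446) at a mean log2 intensity of 6.47, and was named for its role beside Spred proteins. Of all genes, 2.62% rose and 0.844% fell.

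Upstream, 2 of 38 genes listed as ligands and receptors rose and 0 fell (median log2 change 0.01). Fgf18, Fgfr4, Hgf, Met and Gdnf were at the floor on all 12 arrays and could not pass. Bdnf, a neurotrophin whose receptor signals through ERK, averaged 1223 ± 214 in exposed animals and 620.5 ± 87.7 in control animals (SD, n = 6 each, adjusted p = 0.00391 in limma). Hbegf, a ligand of the EGF receptor, averaged 144 ± 5.65 in exposed animals and 124 ± 6.23 in control animals (log2 change 0.22, adjusted p = 0.0114). Fgf9, the gene with the next smallest p, had a change of 0.07 ± 0.02 (SE, adjusted p = 0.20).

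Of 19 other feedback inhibitors of the same signalling measured, 4 rose and 0 fell (median log2 change 0.05). The 4 were Dusp1, Dusp2, Dusp5 and Dusp6, which code for phosphatases of MAP kinases, while 4 further Dusp genes of the list did not pass. Dusp6, which acts on ERK in the cytoplasm and is like Spry4 a known target of ERK signalling, averaged 2058 ± 77 in exposed animals and 1233 ± 104 in control animals (SD, n = 6 each), a log2 change of 0.74 ± 0.05 (SE, adjusted p = 2.82e-05 in limma). Dusp5 had a change of 1.20 ± 0.08, Dusp1 of 1.06 ± 0.10 and Dusp2 of 0.81 ± 0.08, each with 6 of 6 exposed animals above every control animal. The genes with the next smallest p were Dusp9 at 0.19 ± 0.05 (adjusted p = 0.0744) and Dusp4 at 0.26 ± 0.07 (adjusted p = 0.0817), and Dusp7 was at -0.001 ± 0.03 and Dusp10 at -0.02 ± 0.06 (adjusted p = 1 for both). These lists were drawn up with earlier results of these data known, so their counts are descriptions.

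Of 24 genes listed as transcripts that ERK signalling is known to induce, 12 rose and 0 fell, with a median log2 change of 0.26. The list includes Lif, which was at the floor on 12 arrays and could not pass. It also includes Elk1 (-0.13) and Elk4 (0.004), known more as factors that ERK acts on than as induced transcripts. The 6 genes of the list with the smallest p were the transcription factors Egr1, Egr2, Egr4, Fos and Fosb and the synaptic gene Arc, with changes from 1.27 (Egr1) to 3.63 (Egr2). The change of Spry4 (0.54) was close to that of Ier2 (0.55 ± 0.08, adjusted p = 0.00346), an early response gene, and that of Spry3 (0.30) to that of Srf (0.28 ± 0.04, adjusted p = 0.00191), the serum response factor. Both were picked out after their values were seen.

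**Figure D3:**
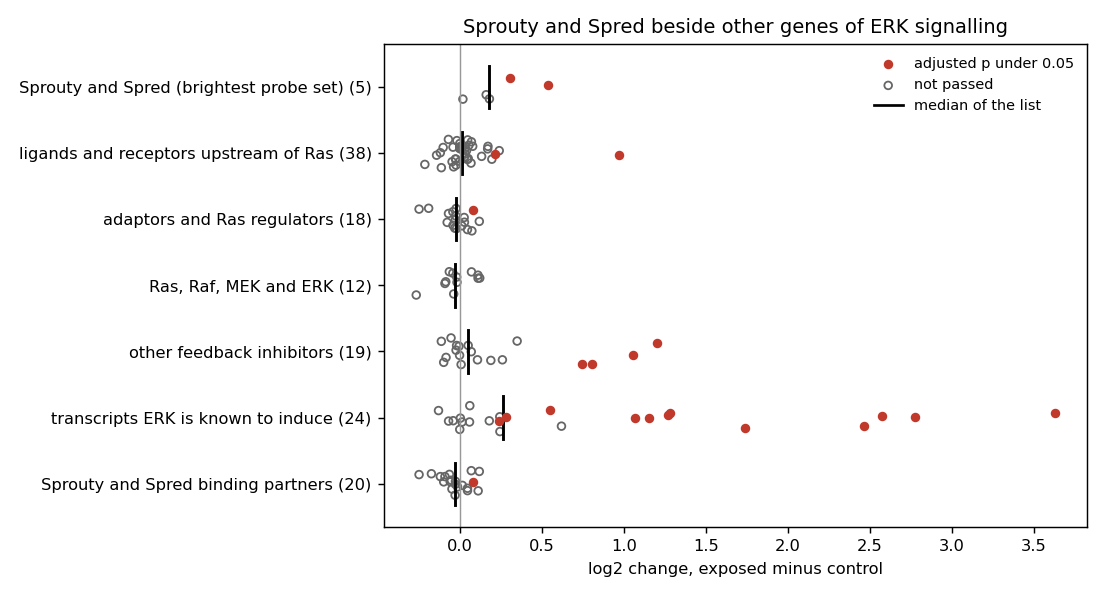
Log2 change (exposed minus control) of each measured gene, by list, at the brightest probe set, with the number of genes in parentheses, filled red points for genes that passed at an adjusted p under 0.05, open points for the rest, and a black line at the median. Points are spread up and down at random within a list. Red points stand at 0.30 and 0.54 for Spry3 and Spry4, between 0.74 and 1.20 for 4 other feedback inhibitors, and up to 3.63 among transcripts that ERK is known to induce, while Ras, Raf, MEK and ERK genes have none.

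Likeness of pattern was measured over the 12 animals as the root mean square difference in log2 intensity between 2 genes, each taken relative to its own mean in control animals, among 12673 other genes. Closest to Spry4 were Cdkn1a at 0.0866, an inhibitor of the cell cycle (log2 change 0.50 ± 0.07), Osbpl3 at 0.0947, of the oxysterol-binding protein family (0.48 ± 0.04), and Mtcl1 at 0.0975, a microtubule crosslinking factor (0.53 ± 0.03). Closest to Spry3 were Sipa1l2 at 0.0659 (0.29 ± 0.04), RGD1305537 at 0.072 (0.32 ± 0.06) and Pla1a at 0.074, a phospholipase (0.26 ± 0.04). All 6 passed in limma, with adjusted p from 3.67e-06 (Mtcl1) to 0.0114 (RGD1305537). They were picked for likeness to genes that had passed, so their passing follows in part from the choice. A small difference here reflects a like size of change as well as like ups and downs between animals.

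**Figure D4:**
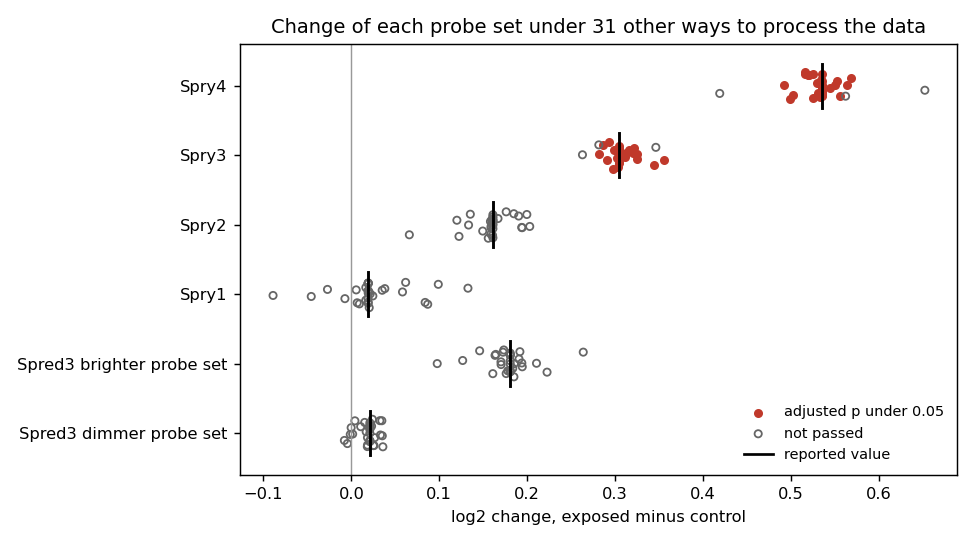
Log2 change (exposed minus control) of each probe set under 31 alternatives to the processing, with 1 point per alternative, filled red where it passed at an adjusted p under 0.05 and open where it did not, and a black line at the reported value. Points are spread up and down at random. Spry4 stays between 0.42 and 0.65 and Spry3 between 0.26 and 0.36, each with 3 open points, and no point of the other probe sets is red.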

How the data were processed

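Forebrain RNA of 12 rats was measured on Affymetrix arrays, and per the labels' protocols it was extracted with Trizol, cleaned on RNeasy columns and labelled with biotin. The authors deposited 1 linear intensity per probe set and array; their background correction and normalization are not stated in the labels or the file. Array medians of log2 intensity lay within 0.0617 and upper quartiles within 0.0681, under the limit of 0.1, so no further normalization was made. Values under the 20th percentile (53.8) were set to it as a floor before log2 was taken, which put 5216 probe sets at it throughout. Group was the only term in lmFit and eBayes with trend (limma 3.58.1, R 4.3.3), adjusted by Benjamini-Hochberg over 31042 probe sets without the 57 array controls. Fold changes are computed from mean log2 values. The fit was tested on simulated data. Depth is not defined for arrays, and 6 animals per group limit the precision.

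Names came from the platform annotation, checked through Entrez IDs in the RefSeq table of build GRCr8 (20826 probe sets with 1 symbol, 436 with several, 9780 with none, 68 IDs unmatched); per-gene values use the brightest probe set. All probe sets of the 7 members are named, and from each of 6 pathway lists the genes with the smallest p, up to 6 that passed and 2 that did not. Members, lists and tests were chosen with earlier results of these data known. Promoters are RefSeq's (GRCr8), and all 7 members matched. The alternatives were normalization, floor, filters, eBayes settings, array weights, replicate block, number sets, covariates and leaving out animals. Deviations of same-numbered animals from their group means had correlations from -0.0759 to 0.161, over 0.1 in 2 of 6 pairs. In 2 pairs the exposed animal correlated best with the control animal of its own number. The numbers were not taken to pair the animals in the main fit, and the replicate block is given as an alternative.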

Additional observations from a re-analysis of the deposited data

Results flagged for a closer look

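None of the 12 sets of 6 values, for 6 probe sets in 2 groups, held an animal far from the others of its group. For each, the gap between the highest or lowest animal and the next, as a share of the range, stayed under Dixon's critical value for 6 samples, the highest being 0.54 (Spry1 in exposed animals). Of 26 sets of array measures, 5 had such an animal, where chance gives about 1 in 20. The measure of RNA quality, 3 prime minus 5 prime, in exposed animal 3 was the highest of its group at 0.586, with the next at 0.443 and a gap of 0.735 of the range, and the changes of Spry4 and Spry3 without that animal are given above. The olfactory bulb and neuroblast marker mean of control animal 4 was 8.58, with the next at 7.69 (0.845). Without control animal 4 the log2 change was 0.56 for Spry4 (adjusted p = 0.00242 in limma) and 0.32 for Spry3 (adjusted p = 0.00684). The astrocyte marker mean was highest in control animal 3 (0.644), the blood marker mean in exposed animal 6 (0.665) and the midbrain and hindbrain marker mean in control animal 2 (0.628).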

How the results depend on the processing

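Spry4 and Spry3 passed in 28 of 31 alternatives each, with a positive change in all of them. The number of Sprouty and Spred probe sets that passed was 2 in 28 alternatives and 0 in the other 3, which were animals 1 to 3 alone, animals 4 to 6 alone (3 per group) and the endothelial and mural covariate. With 1 animal left out in turn it stayed at 2, with adjusted p from 0.0013 to 0.00444 for Spry4 and from 0.00569 to 0.0149 for Spry3. The replicate block kept both calls (adjusted p = 0.0311 for Spry4, 0.0193 for Spry3), with 435 of all probe sets passed instead of 796. Over all probe sets the count was 75 in animals 1 to 3, 33 in animals 4 to 6, 98 with the endothelial and mural covariate and 510 without 3 arrays together (control 4, exposed 3 and 5), and from 555 to 804 with 1 animal left out. For pairs of probe sets of 1 gene it was 60, against 118 with the floor at the 40th percentile, 96 with array weights, 15 with the replicate block, 4 and 6 in animals 1 to 3 and 4 to 6, 26 without the 3 arrays, and 40 to 61 with 1 animal left out. The small change of Spry1 turned negative in animals 4 to 6 (-0.0456), with the endothelial and mural covariate (-0.0891), and without control animal 1 or exposed animal 1 (lowest -0.0271, highest 0.0618 over animals left out). That of the dimmer Spred3 probe set did so with the RNA quality (-0.00021) and endothelial (-0.0079) covariates, without the 3 arrays (-0.0012) and without control animal 6 (from -0.0045 to 0.0359 over animals left out). Spry2 and the brighter Spred3 probe set passed in 0 of 31. The smallest adjusted p in limma was 0.0953 for Spry2, with the replicate block, and 0.0538 for the brighter Spred3 probe set, without exposed animal 6. The cause of these moves was not tested. The difference in RNA quality ran from 0.03 to 0.07 with 1 animal left out.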
